A study of Homo sapiens with 6 samples.

Results

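A set of 7 cancer genes that are central to the biology of the MDA-MB-231 breast cancer line were followed: the oncogenes BRAF and MYC, the tumour suppressors NF1, NF2, CDKN2A and CDKN2B, and MTAP, the metabolic gene beside CDKN2A. They were chosen by name, as the 7 of 57445 rows of the expression table whose Ensembl identifier belongs to one of these symbols, and the rule uses no measured value, although earlier results of these data were known when it was set. MDA-MB-231 is a human, hormone receptor negative breast cancer line with a mesenchymal appearance. All cells had been infected with a pGIPZ lentivirus, which makes a short hairpin RNA from the vector, and had been selected with puromycin at 2 µg/ml. The shCTL cells carried a control hairpin that should silence no gene, and the shRor1 cells carried a hairpin against ROR1, a receptor of the non-canonical Wnt pathway. The labels also call the control an empty vector, and the headers of the control columns hold the word DMSO, which neither the labels nor the methods mention. Each group had 3 libraries, which are called the first, the second and the third in the order of the table. The columns carry no replicate number, so whether libraries at the same position belong together is unknown. The test treats them as unpaired. Nothing says that these came from separate cultures, so p-values here measure only the spread between libraries, which may be technical.

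Values are TPM, a measure of transcript abundance, and take the length of a gene and the sum of its library into account, so that levels can be compared between genes. The study lists mapped reads per library, but the columns carry no replicate number, so that these depths could not be tied to single columns and were not used here. Between 16036 and 17033 genes per library reached 1 TPM, with the highest number in the third library of both groups. The labelled cell type was checked against its markers. Of 11 mesenchymal and basal genes, 9 were expressed (at least 1 TPM in at least 3 libraries), with VIM at 2399 to 2920 TPM, whereas KRT5 and KRT14 lay between 0 and 0.17 TPM. ESR1 was at 0.10 to 0.21 TPM and PGR at 0 to 0.01 TPM. However, 8 of 10 luminal genes were expressed, among them KRT19 at 84.77 to 141.5 TPM and ERBB2 at 26.55 to 34.9 TPM. The counts of expressed markers alone therefore do not tell a basal from a luminal line. Of 8 markers of immune, endothelial and stromal cells in the table, 2 were expressed, COL1A1 and DCN, and the summed level of all 8 was 9.20 to 15.3 TPM in shCTL and 8.94 to 13.7 TPM in shRor1. ROR1 itself was at 15.42, 13.49 and 20.56 TPM in shCTL, against 9.34, 11.93 and 14.85 TPM in shRor1. Its groups overlapped, and the difference of -0.43 ± 0.20 (log2, SE) did not pass the test (unadjusted p = 0.0649, adjusted p = 0.984, limma). The knockdown that the labels state is therefore not resolved in these RNA values. The study examined it at the protein level by western blot, which these values do not measure. All comparisons below are between libraries labelled shCTL and shRor1.

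The members belong to pathways that meet at cell division. BRAF is a serine/threonine kinase that passes the signal of RAS to MEK and ERK, and NF1 encodes neurofibromin, a GTPase-activating protein that switches RAS off. NF2 encodes merlin, a relative of the ezrin, radixin and moesin proteins of the cell cortex that acts upstream of the Hippo kinases. CDKN2A and CDKN2B lie side by side on chromosome 9. CDKN2A makes p16INK4a, which blocks CDK4 and CDK6, and, in another reading frame from another start, p14ARF, which restrains the ubiquitin ligase MDM2. CDKN2B makes p15INK4b, a further inhibitor of CDK4 and CDK6. MTAP, next to CDKN2A, recycles the methylthioadenosine that polyamine synthesis leaves behind, and is often lost together with CDKN2A in tumours. MYC is a transcription factor that pairs with MAX and drives genes of ribosome production and growth. As background, MDA-MB-231 is known as a line with mutated BRAF and NF2 and with a deletion that takes in CDKN2A. No genotype was read here, and TPM values cannot tell a missing copy from a copy that is not transcribed.

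How unique the sequence of each gene is matters for how a value of 0 is read, because a read that fits more than 1 gene has to be divided. Words of 50 bases, the length of the reads, were compared between the transcripts of all genes. CDKN2A shared 31 of its 4106 words (0.755%) and CDKN2B 31 of its 3993 words (0.776%) with any other gene, and each shared them with the other alone. Most of either transcript could therefore be told apart from the other. Of the other members, MYC shared 0 of 6381 words and MTAP 1176 of 14765 (7.96%).

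The promoters of these genes are shown because a gene that is present can be silenced there by DNA methylation. They are RefSeq windows of 300 bases on GRCh38.p14, each mostly upstream of a start site, and 6 of the 7 members had an entry. Capitals mark CG, the dinucleotide that DNA methylation acts on. The CDKN2A windows are chr9:21995275-21995574 and chr9:21974808-21975107, that of CDKN2B is chr9:22009256-22009555, all on the minus strand, and that of MTAP is chr9:21802386-21802685 on the plus strand. NF1, at chr17:31094727-31095026 on the plus strand, is given as an expressed member.
CDKN2A, outer start: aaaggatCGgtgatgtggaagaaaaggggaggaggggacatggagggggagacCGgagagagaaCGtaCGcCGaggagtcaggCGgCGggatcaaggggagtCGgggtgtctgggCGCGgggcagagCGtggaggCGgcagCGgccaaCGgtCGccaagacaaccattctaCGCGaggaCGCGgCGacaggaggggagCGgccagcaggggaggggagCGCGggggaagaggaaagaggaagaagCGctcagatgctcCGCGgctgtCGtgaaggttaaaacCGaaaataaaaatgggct
CDKN2A, inner start: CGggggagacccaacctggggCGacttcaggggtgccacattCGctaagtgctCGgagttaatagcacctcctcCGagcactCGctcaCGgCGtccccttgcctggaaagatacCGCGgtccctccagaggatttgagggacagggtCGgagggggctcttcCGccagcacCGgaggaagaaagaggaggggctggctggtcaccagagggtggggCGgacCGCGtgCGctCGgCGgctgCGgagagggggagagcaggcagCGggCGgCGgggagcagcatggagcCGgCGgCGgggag
CDKN2B: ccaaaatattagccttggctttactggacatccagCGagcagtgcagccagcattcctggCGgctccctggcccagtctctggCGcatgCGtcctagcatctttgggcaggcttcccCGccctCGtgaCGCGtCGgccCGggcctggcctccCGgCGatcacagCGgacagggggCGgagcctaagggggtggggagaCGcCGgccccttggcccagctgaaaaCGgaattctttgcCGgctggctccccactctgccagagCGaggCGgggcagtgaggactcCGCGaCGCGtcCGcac
MTAP: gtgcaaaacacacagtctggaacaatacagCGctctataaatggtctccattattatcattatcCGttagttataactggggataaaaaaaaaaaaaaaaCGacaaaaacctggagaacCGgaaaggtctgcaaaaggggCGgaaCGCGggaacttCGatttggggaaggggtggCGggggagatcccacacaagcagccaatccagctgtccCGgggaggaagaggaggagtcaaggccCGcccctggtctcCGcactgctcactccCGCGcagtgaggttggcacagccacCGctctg
NF1: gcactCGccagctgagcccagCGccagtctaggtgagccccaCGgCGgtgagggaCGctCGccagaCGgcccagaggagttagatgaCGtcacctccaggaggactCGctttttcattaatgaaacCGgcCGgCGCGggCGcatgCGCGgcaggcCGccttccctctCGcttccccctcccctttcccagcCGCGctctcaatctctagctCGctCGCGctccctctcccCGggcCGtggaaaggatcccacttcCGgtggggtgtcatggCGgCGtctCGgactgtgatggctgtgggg
The windows held 28 and 26 CG at CDKN2A, 25 at CDKN2B, 15 at MTAP and 29 at NF1, against a median of 21 over 21198 promoters of protein-coding genes. The listed-at-0 genes CDKN2A and CDKN2B have windows with nearly as many CG as that of the expressed NF1. The windows of the other expressed members with an entry held 16 CG at BRAF and 39 and 27 at NF2. Methylation was not measured.

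CDKN2A (ENSG00000147889.12, GRCh37 chr9:21967751-21995300, minus strand) and CDKN2B (ENSG00000147883.9, chr9:22002902-22009304, minus strand) were both listed at 0 TPM in each of the 6 libraries. The table carries 2 decimals, and its smallest value above 0 is 0.01 TPM. No library of either group gave either gene any value, and no comparison of the groups can be made. Such a value is not rare in itself. Of 19364 protein-coding genes, 1807 (9.33%) were listed at 0 in all 6 libraries and 3609 (18.6%) stayed under 0.1 TPM in all 6. Both values are for bulk RNA, in which fewer cells of a type and less RNA per cell cannot be told apart. The remaining INK4 genes were expressed. CDKN2C (p18INK4c) was at 33.26, 35.88 and 42.00 TPM in shCTL, against 34.48, 40.35 and 42.60 TPM in shRor1. CDKN2D (p19INK4d) was at 17.06, 19.77 and 22.97 TPM in shCTL, against 18.03, 22.83 and 24.56 TPM in shRor1. Both overlapped between the groups and were lowest in the first library of each group.

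MTAP (ENSG00000099810.14, chr9:21802635-21937650, plus strand) was low but not at 0. It was at 0.63, 0.43 and 0.56 TPM in shCTL, against 0.35, 0.37 and 0.96 TPM in shRor1. The shRor1 libraries held both the lowest values and the highest one, and the groups overlapped. The means were 0.54 ± 0.10 and 0.56 ± 0.35 TPM (SD, n = 3), and an exact permutation test (two-sided, 3 against 3 libraries, smallest possible value 0.1) gave p = 1.0. With no library at 1 TPM, MTAP was not among the 16554 genes tested. Of all protein-coding genes, 33.3% had a lower mean. Much of the sequence that MTAP shares with other genes belongs to transcripts that were listed at 0. These values come after shared reads had been divided between genes, and where such reads came from was not tested. ERVFRD-3, a pseudogene inside the MTAP locus, held 635 of the shared words and was at 0 TPM in all libraries, as was ENSG00000264545, a long RNA that runs on from MTAP past CDKN2A and CDKN2B, with 414 words. MTAPP2, a processed pseudogene of MTAP on chromosome 3, was at 0 to 0.10 TPM. An antisense RNA inside MTAP, ENSG00000265194, was at 0.05 to 0.24 TPM.

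**Figure D1:**
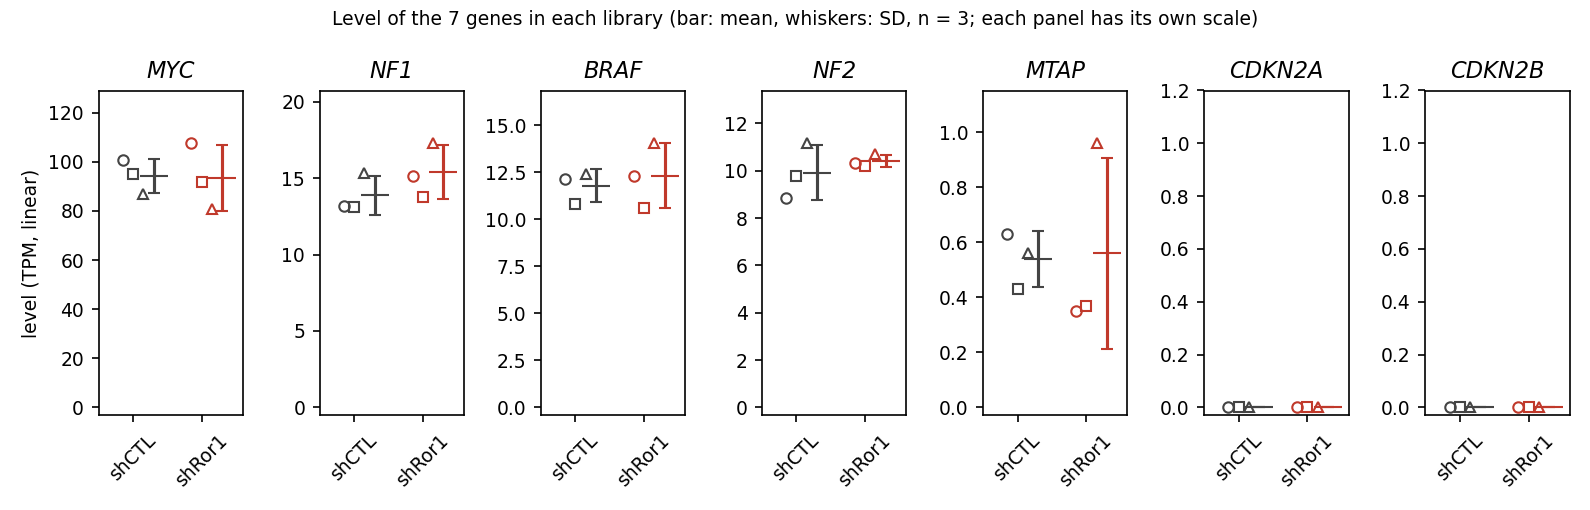
Level of each of the 7 genes in TPM on a linear axis that starts at 0, with a scale of its own per panel. Circles, squares and triangles are the first, the second and the third library of a group, the bar is the mean and the whiskers are the SD (n = 3). CDKN2A and CDKN2B are at 0 in all 6 libraries, MTAP stays below 1 TPM, and in the other 4 genes the shCTL and shRor1 libraries overlap.

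The genes around this locus were near 0 as well. Within 1 Mb of CDKN2A, CDKN2B or MTAP the annotation places 54 further genes, of which 44 were listed at 0 in all 6 libraries. Of the 20 protein-coding ones, 18 (90.0%, exact 95% interval 68.3 to 98.8%) were under 0.1 TPM in all libraries and 17 were at 0, against 18.6% of all protein-coding genes under 0.1 TPM. Neighbouring genes are not independent of each other, so that this interval is a description only. The same share was 5 of 23 (21.7%) around BRAF, 2 of 25 (8.0%) around NF1 and 6 of 44 (13.6%) around NF2. MYC had 1 protein-coding neighbour, which was not under 0.1 TPM in all libraries. The chromosome 9 genes thus stood in a neighbourhood near 0, whereas BRAF, NF1 and NF2 did not. Most of that share rested on 16 interferon genes, all at 0. Of the remaining protein-coding neighbours, DMRTA1 and KLHL9 were under 0.1 TPM in all libraries, and HACD4 and FOCAD were not.

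**Figure D2:**
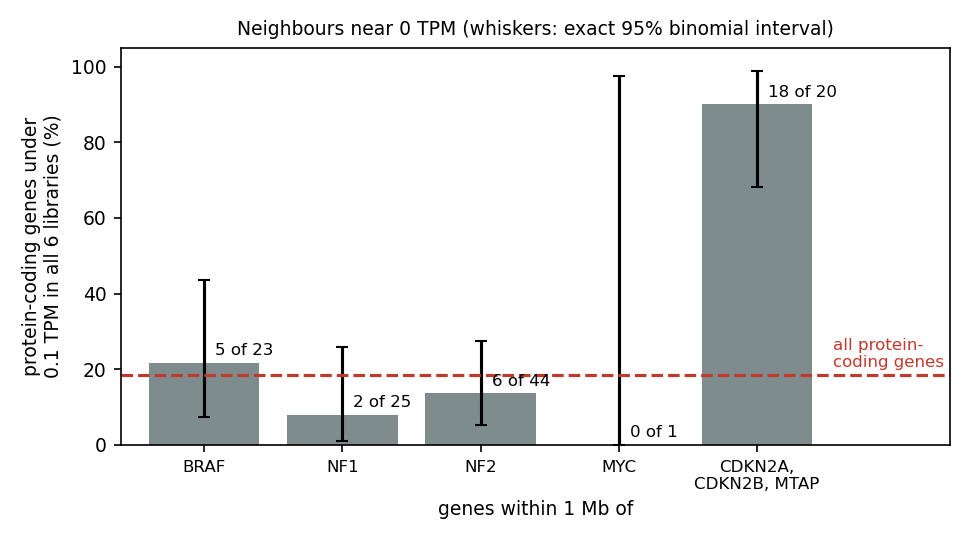
Share of protein-coding genes within 1 Mb of each member that stayed under 0.1 TPM in all 6 libraries, in percent, with the exact 95% binomial interval as whiskers. The dashed line is the share over all protein-coding genes, 18.6%. The bar for CDKN2A, CDKN2B and MTAP, pooled and with the 3 genes left out, is at 90.0%, and the bar for MYC rests on 1 gene. Of the genes near 0 in that pooled bar, 16 are interferon genes.

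The neighbours include the type I interferon cluster, a family of antiviral genes that most cells transcribe only on infection. All 16 protein-coding interferon genes within 1 Mb were at 0 in all 6 libraries. A value of 0 is usual for these genes in cells without infection. The following genes, some already named above, are named outside the naming rule, after their values were seen. KLHL9, a ubiquitin ligase adaptor in the cluster, was at 0.03 to 0.08 TPM. HACD4, a fatty acid elongation enzyme, was at 0.10 to 0.19 TPM. The genes DMRTA1, MIR31HG and CDKN2A-DT were at 0 in all 6 libraries. Counted along the chromosome, CDKN2A, CDKN2B and MTAP stood in a run of 24 consecutive protein-coding genes that did not reach 1 TPM in 3 libraries. It ran from HACD4 to IZUMO3 over 3.55 Mb, and held 20 genes at 0, of which 16 were the interferon genes. Of 3466 such runs in the genome, 11 had at least as many genes, this run itself included, and the median run had 1 gene.

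A run ends, by its definition, at an expressed protein-coding gene on each side, so that the presence of such genes is no result. FOCAD, the nearest expressed protein-coding gene before MTAP, ends 0.807 Mb from it and was at 4.16, 3.94 and 5.89 TPM in shCTL and 4.02, 4.38 and 5.72 TPM in shRor1. TUSC1, the nearest after CDKN2B at a distance of 3.67 Mb, was at 4.97, 4.91 and 4.16 TPM in shCTL and 4.97, 5.05 and 4.62 TPM in shRor1. Both genes overlapped between the groups, and both had a mean near the middle of all protein-coding genes.

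Non-coding RNAs inside the span of the run were not all low. ENSG00000237414, a long non-coding RNA named after its values were seen, lies more than 1 Mb away and was at 11.98 to 14.15 TPM. Within 1 Mb, FOCAD, outside the run, and the long non-coding RNA CDKN2B-AS1 (ANRIL), inside it, reached 1 TPM in 3 libraries. CDKN2B-AS1 lies at chr9:21994138-22128102 on the plus strand, starts opposite the outer end of CDKN2A and runs outward past CDKN2B. It was at 0.93, 0.98 and 1.05 TPM in shCTL, against 1.09, 1.33 and 1.25 TPM in shRor1. Each shRor1 library lay above each shCTL library, but the difference of 0.16 ± 0.13 (log2, SE) did not pass the test (adjusted p = 0.984, limma), and 7.78% of all genes tested had groups that did not overlap. Of the 20420 exonic bases annotated for CDKN2B-AS1, 19556 (95.8%) lie beyond the outer end of CDKN2B, and 593 lie opposite an exon of CDKN2A or CDKN2B. The value can therefore come from sequence outside both genes, and where along the RNA its reads lay was not tested. LINC01239, a further non-coding RNA on that side, was at 0.50, 0.50 and 0.43 TPM in shCTL and 0.71, 0.54 and 0.81 TPM in shRor1.

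**Figure D3:**
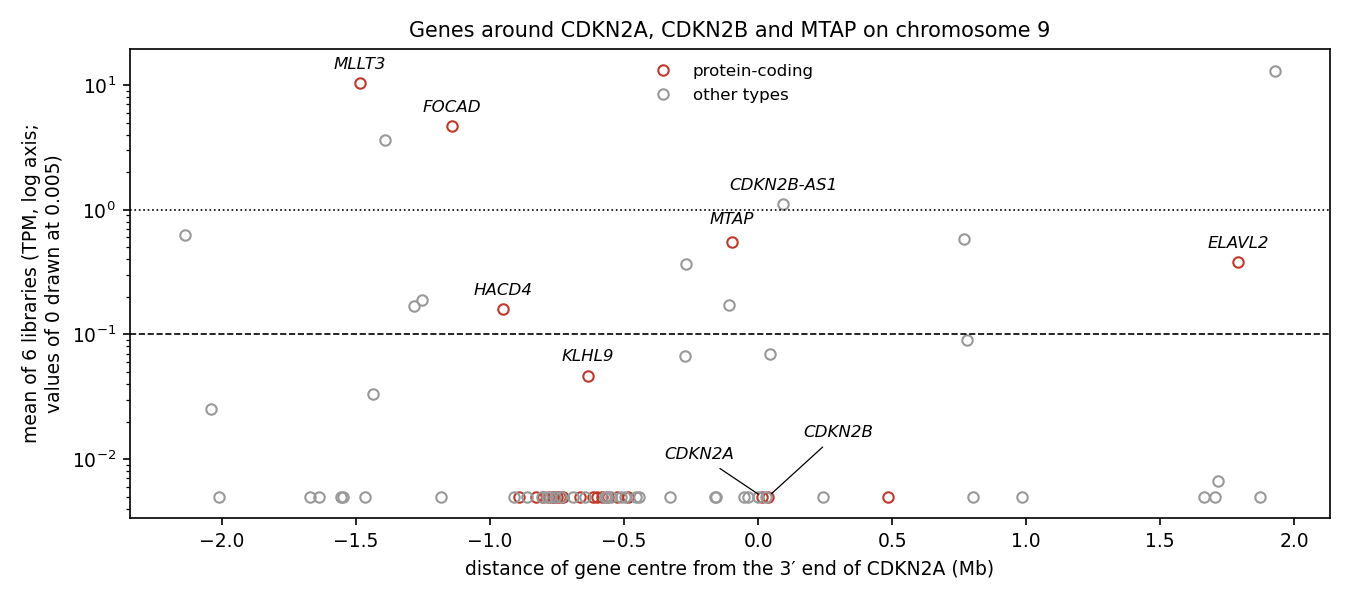
Mean of the 6 libraries in TPM, on a log axis, for each annotated gene within about 2 Mb of CDKN2A, by the distance of the gene's centre from the 3′ end of CDKN2A. Red circles are protein-coding genes, grey circles other types, and values of 0 are drawn at 0.005; the dotted line is 1 TPM and the dashed line 0.1 TPM. MLLT3 and FOCAD on the left are above 1 TPM, the interferon genes, CDKN2A and CDKN2B lie at 0, and MTAP and CDKN2B-AS1 lie at 0.55 and 1.11 TPM.

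The partners of the chromosome 9 genes were expressed. CDK4, the kinase that p16INK4a and p15INK4b block, was at 428.59, 414.10 and 390.19 TPM in shCTL, against 443.94, 395.09 and 333.82 TPM in shRor1. CDK6 was at 26.0 ± 0.26 TPM in shCTL and 27.7 ± 1.46 TPM in shRor1 (SD, n = 3), and CCND1, the cyclin that activates both kinases, was at 226 ± 16.3 and 229 ± 25.0 TPM. RB1, the substrate that holds the G1 block, was present at 34.4 ± 1.27 and 37.8 ± 4.81 TPM. None of the 20 tested genes of the list of G1 cyclins, CDKs and RB proteins passed the test (smallest adjusted p = 0.984, limma). Of them 0 were at an unadjusted p under 0.05, against 2.85% of all genes tested. RBL2, an RB relative (0.31 ± 0.20), and CDKN1B, the CDK inhibitor p27 (0.15 ± 0.10), had the largest differences (log2, SE).

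The enzymes around MTAP were also expressed. PRMT5, an arginine methyltransferase that the MTAP substrate inhibits, was at 295.26, 258.53 and 273.99 TPM in shCTL, against 282.20, 226.29 and 227.81 TPM in shRor1, and MAT2A, which makes S-adenosylmethionine, was at 252 ± 12.0 and 266 ± 21.2 TPM. WDR77, the partner of PRMT5, was at 151.48, 154.92 and 130.09 TPM in shCTL, against 138.77, 123.91 and 109.84 TPM in shRor1, and had the largest difference of the list with -0.23 ± 0.11 (log2, SE; adjusted p = 0.984, limma). Its groups overlapped through the third shCTL library. The polyamine enzymes ODC1 and SMS stood highest, at 303 and 279 TPM over the 6 libraries. ODC1 ranged from 243 to 386 TPM in shCTL and from 199 to 382 TPM in shRor1, a spread larger than the difference of the groups. Of the 15 genes of the list, 0 passed the test, and 5 had a difference above 0 and 10 below, while 67.0% of all genes tested were above 0. The median was -0.01, against 0.05 for all genes tested. It lay above 0 without the third shRor1 library (0.03) or without the first shCTL library (0.01).

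BRAF (ENSG00000157764.7, GRCh37 chr7:140419127-140624729, minus strand) was expressed at a moderate level. It was at 12.14, 10.79 and 12.41 TPM in shCTL, against 12.32, 10.57 and 14.03 TPM in shRor1. The second library was the lowest and the third the highest of both groups, and the groups overlapped. The means were 11.8 ± 0.868 and 12.3 ± 1.73 TPM (SD, n = 3), with a difference of 0.05 ± 0.12 (log2, SE; 95% interval -0.24 to 0.34; adjusted p = 0.986, limma), which lay below 0 under quantile normalization and under median ratio scaling, the alternatives to plain TPM. On a linear scale of TPM + 1 the interval reaches from 0.849 to 1.27 times the shCTL value. ARAF, a relative of BRAF, was 1.71 times as high over the 6 libraries and stood above BRAF in 6 of 6. BRAF shared 521 of 24019 words with other genes (2.17%), 191 of them with its pseudogene BRAFP1, which was at 0.01 to 0.08 TPM.

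The RAS genes above BRAF and the kinases below it were also present in all libraries. HRAS was at 111.46, 100.44 and 110.97 TPM in shCTL, against 106.81, 90.78 and 91.07 TPM in shRor1, and NRAS at 109 ± 2.46 and 112 ± 9.50 TPM. PTPN11 (159 and 162 TPM), the phosphatase that relays receptor signals to RAS, and MAP2K2 (148 and 146 TPM), which encodes MEK2, were the highest of the cascade. Of the 18 tested genes of the list, 0 passed the test and 0 were at an unadjusted p under 0.05, against 2.85% of all genes tested. There were 12 differences above 0 and 6 below, while 67.0% of all genes tested were above 0. The median was 0.03, against 0.05 for all genes tested, and was -0.05 under median ratio scaling. The largest differences were those of the RAS relative RRAS (0.33 ± 0.21) and the exchange factor SOS2 (0.25 ± 0.16). KSR2, a scaffold, did not reach the level needed for the test.

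The genes that ERK switches on were read as a further view on the cascade. Of 14 genes, 0 passed the test after adjustment, as for all 16554 genes tested (0% called). At an unadjusted p under 0.05 there were 2, both higher in shRor1, against 2.85% of all genes tested. These are PHLDA1, a regulator of cell survival, at 85.48, 80.57 and 91.51 TPM in shCTL and 93.50, 105.87 and 107.87 TPM in shRor1, and IER3, an early response gene, at 141.33, 134.99 and 132.97 TPM in shCTL and 151.28, 154.39 and 166.58 TPM in shRor1. They are named after their values were seen. Their differences were 0.25 ± 0.08 and 0.20 ± 0.07 (log2, SE; adjusted p = 0.984, limma, for both). SPRY2, an ERK feedback inhibitor named in the same way, also had groups that did not overlap, with an SE of 0.09 on a difference of 0.19. With PHLDA1 and IER3 these are 3 of 14, against 7.78% of all genes tested. DUSP6, the ERK phosphatase, had the largest difference of the list that was above 0, and showed how wide the spread was, with 151.68, 167.22 and 223.20 TPM in shCTL and 148.94, 223.06 and 325.55 TPM in shRor1. EGR1 had the largest below 0 (-0.29 ± 0.36), with a single shCTL library at 34.82 TPM and the other 5 between 11.17 and 19.53 TPM. FOSL1 and CCND1 stood highest, at 227 TPM over the 6 libraries each. The list had 13 differences above 0 and 1 below and a median of 0.09 (0.0075 under median ratio scaling), while 67.0% of all genes tested were above 0, with a median of 0.05.

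NF1 (ENSG00000196712.12, GRCh37 chr17:29421945-29709134, plus strand) was expressed at a level slightly above that of BRAF. It was at 13.18, 13.10 and 15.33 TPM in shCTL, against 15.14, 13.76 and 17.27 TPM in shRor1. The third library was the highest of both groups, and the 2 lowest values were shCTL libraries, although the groups overlapped. The means were 13.9 ± 1.27 and 15.4 ± 1.77 TPM (SD, n = 3). The difference of 0.14 ± 0.12 (log2, SE; 95% interval -0.13 to 0.41) did not pass the test (adjusted p = 0.984, limma), and the exact permutation test gave p = 0.3. NF1 has many pseudogenes, with which it shared 461 of 42803 words (1.08%) together with other genes. The pseudogenes NF1P1 and NF1P2 were at 0, and the highest value was that of NF1P4, which was at 0 in all shCTL libraries and at 0.08, 0.09 and 0.16 TPM in shRor1. These levels are small beside that of NF1. With the values of its pseudogenes added, the difference of NF1 was 0.15.

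Other GTPase-activating proteins of RAS stood at like levels. RASA3 was 2.19 times and RASA1 1.75 times as high as NF1 in the mean of the 6 libraries and above it in 6 of 6, RASA2 was below it in 6 of 6, and DAB2IP, at 14.4 TPM, was above NF1 in 3 of 6 libraries. SPRED2, of the family that brings NF1 to the membrane, was the highest of the list with 35.7 ± 3.63 TPM in shCTL and 36.8 ± 4.79 TPM in shRor1. SPRED1, of the same family and also named after its values were seen, was the gene of the list with an unadjusted p under 0.05. It was at 26.06, 22.83 and 24.06 TPM in shCTL, against 29.14, 27.64 and 29.25 TPM in shRor1. Each shRor1 library was above each shCTL library, with a difference of 0.23 ± 0.08 (log2, SE; adjusted p = 0.984, limma). It is 1 of 11 by either measure, against 2.85% of all genes tested at that p and 7.78% with groups that did not overlap. RASA1 (0.27 ± 0.13) had a larger difference with a wider spread. All 11 tested genes of the list had a difference above 0, as had 67.0% of all genes tested, although the median of 0.06 was -0.01 under median ratio scaling. Of them 0 passed the test, and RASAL1 and RASAL3 were too low to be tested.

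NF2 (ENSG00000186575.13, GRCh37 chr22:29999545-30094587, plus strand) was the lowest of the 4 members that reached the test. It was at 8.83, 9.78 and 11.16 TPM in shCTL, against 10.31, 10.22 and 10.69 TPM in shRor1. All 3 shRor1 libraries lay inside the range of shCTL. The means were 9.92 ± 1.17 and 10.4 ± 0.250 TPM (SD, n = 3), and the difference of 0.07 ± 0.11 (log2, SE; 95% interval -0.19 to 0.33; adjusted p = 0.984, limma) lay below 0 under both other scalings. The relatives of merlin were far higher. Over the 6 libraries radixin (RDX) was 6.96 times, ezrin (EZR) 19.9 times and moesin (MSN) 37.9 times as high as NF2. MSN was at 381 ± 14.0 TPM in shCTL and 390 ± 20.4 TPM in shRor1, and EZR at 200 ± 4.01 and 203 ± 3.78 TPM.

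Of the Hippo kinases and their targets, WWTR1 (TAZ), a co-activator that the pathway restrains, differed most. It was at 54.53, 58.45 and 63.70 TPM in shCTL, against 63.05, 79.17 and 89.18 TPM in shRor1. The groups overlapped through a single pair, as the first shRor1 library lay just below the third shCTL library, and the difference of 0.37 ± 0.13 (log2, SE) had an unadjusted p of 0.0228 and did not pass the test (adjusted p = 0.984, limma). YAP1, its relative, was at 87.18, 90.76 and 90.82 TPM in shCTL, against 93.53, 98.00 and 97.31 TPM in shRor1. YAP1, the kinase gene LATS1 and the LATS cofactor gene MOB1B, named after their values were seen, had groups that did not overlap, each higher in shRor1. These are 3 of 19 tested genes, against 7.78% of all genes tested. Their differences were 0.10 ± 0.06, 0.12 ± 0.08 and 0.15 ± 0.09 (log2, SE). RDX followed WWTR1 in size with 0.175 ± 0.085. In the list as a whole, 15 of 19 tested genes had a difference above 0 and 4 below, against 67.0% of all genes above 0, and 0 passed the test. The median of 0.09 was 0.0084 under median ratio scaling and 0.039 under quantile normalization. It was 0.044 without the first shCTL library, 0.045 without the second and 0.0429 without the third shRor1 library. AMOT was too low to be tested.

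MYC (ENSG00000136997.10, GRCh37 chr8:128747680-128755197, plus strand) was the highest member by far. It was at 100.91, 94.99 and 87.06 TPM in shCTL, against 107.50, 91.78 and 80.85 TPM in shRor1. The first library was the highest and the third the lowest of both groups, whereas NF1 was highest in the third, and the shRor1 values enclosed those of shCTL. The means were 94.3 ± 6.95 and 93.4 ± 13.4 TPM (SD, n = 3). The difference of -0.02 ± 0.11 (log2, SE; 95% interval -0.29 to 0.24; adjusted p = 0.992, limma) changed its sign with the library left out. On the linear scale of TPM + 1 the interval spans 0.820 to 1.18 times the shCTL value. Of all protein-coding genes, 91.1% had a lower mean than MYC. PVT1, the long non-coding RNA gene next to MYC that is often amplified with it, was at 49.17, 45.97 and 48.16 TPM in shCTL, against 52.97, 46.80 and 48.28 TPM in shRor1. Over the 6 libraries the mean of MYC was 1.93 times that of PVT1 and 1.89 times that of its partner MAX. The other MYC genes were nearly silent, with MYCL at 0.26 to 0.56 TPM and MYCN at 0 to 0.01 TPM.

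**Figure D4:**
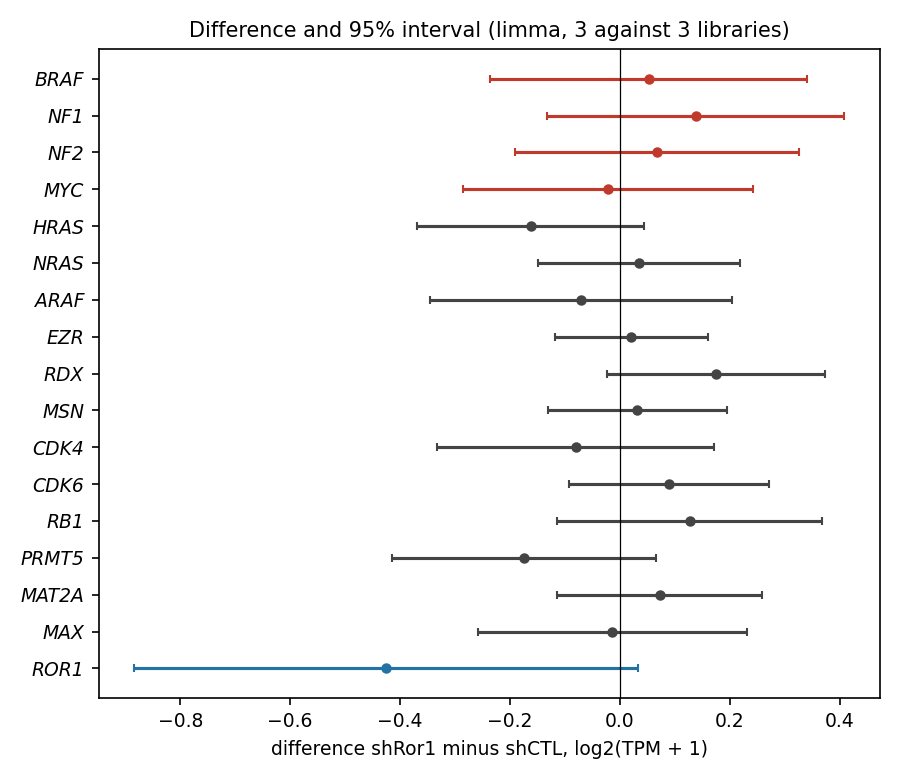
Difference shRor1 minus shCTL on the log2(TPM + 1) scale with its 95% interval (limma, 3 against 3 libraries) for the 4 members that could be tested (red), 12 partner genes (grey) and ROR1 (blue). All intervals include 0, and those of BRAF, NF1, NF2 and MYC together reach from -0.29 to 0.41.

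MYC and MAX bind the E-box CACGTG, a palindrome that reads the same on both strands. It was searched in the 300-base RefSeq promoters of 20 genes of a list of known MYC targets, and 10 of them held it (50.0%), against 1646 of 14989 protein-coding genes with a promoter (11.0%). The list was drawn from knowledge of MYC targets, so a high share says nothing about these cells. The 4 highest of these genes show the motif, in capitals, within 12 bases on each side, on GRCh38.p14.
LDHA, chr11:18394366-18394395, plus strand: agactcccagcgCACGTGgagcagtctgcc
FBL, chr19:39846356-39846385, minus strand: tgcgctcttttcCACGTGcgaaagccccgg
CDK4, chr12:57752509-57752538, minus strand: atgtcaagcggtCACGTGtgatagcaacag
ODC1, chr2:10448024-10448053, minus strand: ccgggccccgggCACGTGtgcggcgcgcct
A match is a description of the letters and not of a bound site.

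Of the 23 MYC target genes tested, 21 had a difference below 0 and 2, LDHA and EIF4E, above it, with a median of -0.09 against 0.05 for all genes. None passed the test, and 0 were at an unadjusted p under 0.05, against 2.85% of all genes tested. NPM1, a nucleolar chaperone of ribosome assembly, was at 4246.80, 4089.11 and 3632.43 TPM in shCTL, against 4049.85, 4023.01 and 3173.51 TPM in shRor1. LDHA, the lactate dehydrogenase, was at 1650 ± 135 and 1855 ± 399 TPM. The largest differences were those of RRP9 (-0.195 ± 0.192), which processes ribosomal RNA, and the polyamine enzyme gene SRM (-0.195 ± 0.173). These genes moved with the libraries as MYC did. The third library was the lowest of its group for 20 of the 23 in shCTL and 21 of the 23 in shRor1, and of both groups at once for 20 (87.0%), against 13.2% of all genes tested. Without the third shRor1 library the median was 0.03, and without the third library of both groups, a setting chosen after seeing the data, it was -0.03. The target genes were therefore low in the libraries in which MYC was low, in both groups alike, and the same libraries had the most genes at 1 TPM or more. What sets the third libraries apart was not tested. Of the MYC-MAX network, 11 of 13 genes were tested and 0 passed. MLX stood highest at 85.0 TPM, followed by MAX with 49.9 ± 4.27 TPM in shCTL and 49.5 ± 5.57 TPM in shRor1, and MXD3, a repressor that competes with MYC for MAX, had the largest difference (0.22 ± 0.21), followed by the glucose-responsive factor MLXIPL (0.15).

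**Figure D5:**
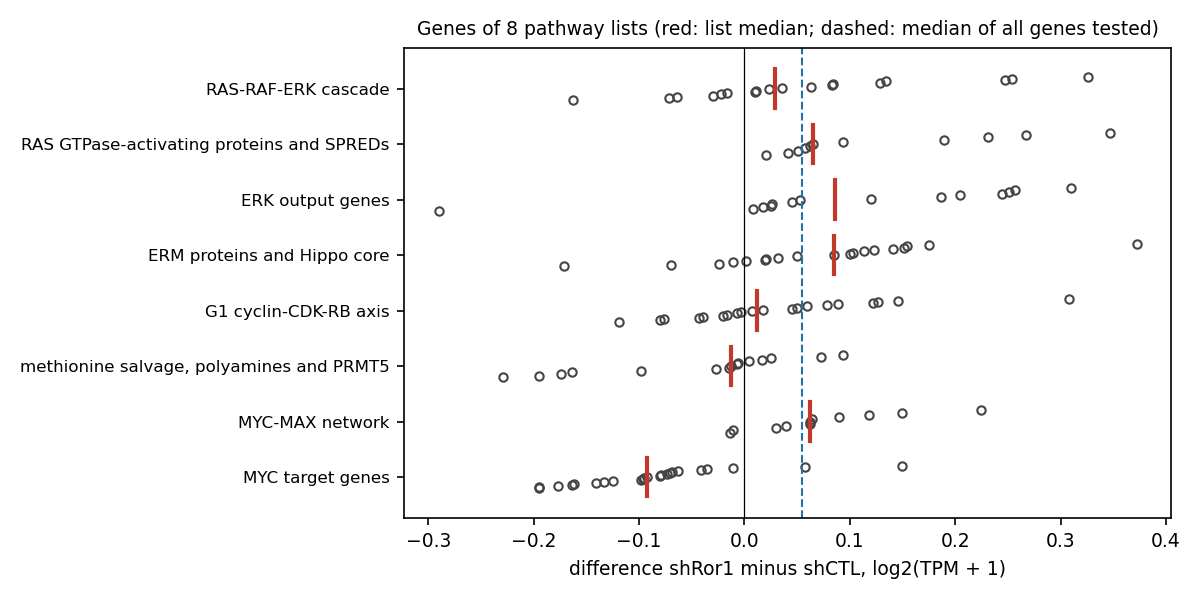
Difference shRor1 minus shCTL on the log2(TPM + 1) scale for each tested gene of 8 pathway lists. A circle is a gene, the red line is the median of the list and the dashed line the median of all 16554 genes tested (0.05). The MYC target genes lie mostly left of 0, with a median of -0.09, and no gene shown passed the test.

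Across the 7 genes the order of the levels was MYC, NF1, BRAF, NF2, MTAP and then CDKN2A and CDKN2B. MYC was 6.41 times as high as NF1, and NF2 18.5 times as high as MTAP, with ranges that lay apart. NF1 and BRAF (1.21 times) and BRAF and NF2 (1.18 times) had ranges over the libraries that overlapped, although NF1 was above BRAF and BRAF above NF2 within each of the 6 libraries. Between shCTL and shRor1, 0 of the 4 tested members passed the test, 0 were at an unadjusted p under 0.05 and 0 had groups that did not overlap. The shares over all genes tested were 0%, 2.85% and 7.78%, so that 0 of 4 is no result about these members. The intervals leave room for differences in either direction, so that equality is not shown. BRAF, NF1 and NF2 were highest in the third library of both groups, as were 33.6% of all genes tested, and MYC was lowest there.

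The genes whose pattern over the 6 libraries was most like that of a member were named by the largest difference between the centred log2(TPM + 1) values. For BRAF these were SND1, a nuclease, with a largest difference of 0.015, and the kinase gene GSK3B with 0.038. The glycosyltransferase gene POFUT2 (0.032) and the non-coding RNA ENSG00000261789 (0.033) were nearest to NF1. For NF2 they were the lipid kinase gene PIP5K1C (0.027) and the inositol phosphate kinase gene PPIP5K1 (0.035), and for MYC the nucleoside transporter gene SLC29A1 (0.034) and YBX3 (0.035), which encodes a nucleic acid binding protein. Such likeness was common. Between 187 and 294 genes lay within 0.1 of each of the 4 members in all libraries, and the 6 libraries share their scaling.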

How the data were processed

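RNA of MDA-MB-231 cells was sequenced in 6 libraries, 3 shCTL and 3 shRor1, as single reads of 50 bases. The labels call the RNA polyadenylated, the methods start from total RNA. According to the submitters' processing notes and the methods, the authors used CASAVA 1.8.2, FastQC 0.10.0, STAR on GRCh37 with Ensembl 73, and RSEM 1.2.5, and tested genes with edgeR. The deposited table is named for expected counts but contains TPM, rounded to 2 decimals. A count model was therefore not used. Libraries were grouped by the column headers, which give the condition and no replicate number. All sample columns were used (0 left out).

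Symbols and coordinates came from GENCODE 44 mapped to GRCh37, which matched 55022 of 57445 identifiers. The 16554 genes that reached 1 TPM in 3 or more libraries were fitted as log2(TPM + 1) on the condition with limma 3.58.1 in R 4.3.3, using a mean-variance trend, and p-values were adjusted after Benjamini and Hochberg (threshold 0.05). Fold changes on this scale understate changes of low genes. The test was checked on simulated data with added shifts larger than the difference of any tested member, so that differences of that size were not covered. A gene under 0.1 TPM in all libraries was called near 0. Exact binomial intervals are at 95% and cover counting error only. Words of 50 bases were compared between the transcripts of all genes. The members and lists were chosen with earlier results of these data known. Named genes were the members, ROR1, 15 fixed partners, per list the 2 highest and the 2 with the largest difference, the expressed neighbours on chromosome 9, pseudogenes sharing words, and the 2 genes most alike to each member; others, such as relatives and partners of members, were named after their values were seen. Alternatives changed the pseudocount, filter, scaling, trend, genes tested, libraries, pseudogenes, window and word length. Some items, among them a few partner genes and 1 pathway list, are not reported here. TPM keeps no depth, and no interval of a level was computed from counts.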

Additional observations from a re-analysis of the deposited data

How the results depend on the processing

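No member passed the threshold under any of the 15 alternatives, with adjusted p from 0.64 to 1 over BRAF, NF1, NF2 and MYC (limma). NF1 kept its direction in all 15 (0.06 to 0.21). BRAF lay below 0 under quantile normalization (-0.0216) and median ratio scaling (-0.0219) and without the third library of both groups (-0.0038), an alternative chosen after seeing the data, and leaving out a library gave -0.0396 to 0.1491, below 0 without the second shCTL (-0.0047) or the third shRor1 library (-0.0396). NF2 was -0.0074 under quantile normalization and -0.0051 under median ratio scaling, with -0.0056 (without the first shCTL library) to 0.1478 when a library was left out. MYC turned to 0.0207 without the third library of both groups and ran from -0.1268 to 0.0765 with a library left out, above 0 without the first shCTL (0.0281) or the third shRor1 library (0.0765). The cause was not tested. Over all genes, the count past the threshold was 0, and 0 to 1 with a library left out. It was 1 without the third shRor1 library and 1 without the third library of both groups. This was RPL39P3, a ribosomal protein pseudogene, with a log2 difference of -5.37 (adjusted p = 9.29e-06) and -5.35 (adjusted p = 0.000502). No paired analysis was possible because replicate numbers are absent from the headers. Without a filter, MTAP had a difference of -0.0015 ± 0.168 (log2, SE; adjusted p = 1.0, limma). At a limit of 1 TPM in place of 0.1, 3 members in place of 2 were near 0. In windows of 0.5 and 2 Mb, 100% and 81.8% of the protein-coding neighbours of the chromosome 9 members were near 0. With words of 30 bases, 12.2% of MTAP, 1.84% of CDKN2A and 0 of MYC were shared. No upper limit was computed for values of 0, since mapped reads could not be tied to single columns.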

Other observations

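ELAVL2, which encodes a neuronal RNA-binding protein, lies in the same run of protein-coding genes below 1 TPM as CDKN2A, and was picked after its values were seen. It was at 0.26, 0.23 and 0.12 TPM in shCTL, against 0.50, 0.58 and 0.60 TPM in shRor1. Every shRor1 library lay above every shCTL library, but no library reached 1 TPM, so it was not among the genes tested. An exact two-sided permutation test gave p = 0.1, the smallest that 3 against 3 libraries allow. Any gene whose groups do not overlap gives this value, so it adds nothing to the choice of the gene. Of all genes tested, 7.78% had groups that did not overlap, and so had LINC01239 in the same region.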
